A study of Arabidopsis thaliana with 6 samples.

Results

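CIPK11 and CP1 are 2 calcium signalling genes of Arabidopsis thaliana, CIPK11 at the locus AT2G30360 and CP1 at the locus AT5G49480. Each is read by 1 probe set, the set of short oligonucleotides that an Affymetrix array uses for a transcript. With the array's name ATH1 put before the probe set ID, these are ATH1.255872_at for CIPK11 and ATH1.248607_at for CP1. These 2 of 22746 non-control probe sets were chosen for their difference between atm mutant and wild type arrays, so that difference is described below without a p-value. The platform annotation used here leaves both probe sets unnamed. Their pairing with the loci was given with the choice of members and was not checked against probe sequences. RefSeq (TAIR10.1) names AT2G30360 as SIP4, with CIPK11 and PKS5 among its synonyms, and AT5G49480 as CP1, with the synonym Ca2+-binding protein 1.

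The samples were whole plants at growth stage 1.04, grown on sterile agar medium with sucrose at 22 °C under 9 h of light and 15 h of dark. The atm mutant group had 3 arrays and carried a genotype labelled AtATM3 mutant, with the source name ATM1 and no strain given, so the labels do not agree on the allele. The wild type group had 3 arrays of strain Col0. ATM is the kinase that starts much of the cellular response to DNA double-strand breaks, and the series title asks for X-ray inducible transcripts that depend on it. No irradiation, dose or time is stated for either group, so an X-ray response and a standing difference between the genotypes cannot be told apart. Each genotype is 1 line, and nothing says that replicates came from separate cultures, so the spread between arrays may be technical.

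Plant cells translate stress signals into short rises of cytosolic calcium, which sensor proteins with EF-hand loops read. CBL proteins are such sensors, and they bind and activate the CIPK protein kinases. CIPK11 is a kinase of this family known from work in Arabidopsis as a negative regulator of the plasma membrane proton pump. CP1 is an EF-hand calcium-binding protein known for its induction by salt.

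Before the results, 2 arrays stood apart from the others. The deviations of atm mutant replicate 2 and wild type replicate 1 from their group means had a Pearson r of 0.647 over the 13895 probe sets that were tested, a description across probe sets and not across samples. The control probe set for 25S ribosomal RNA read 2123 on that mutant array and 836 on that wild type array, against 4106 to 5400 on the other 4. The control probe sets for GAPDH did not set both arrays apart. For example, 1 of them read 692.7 and 711.1 on these arrays, against 529.7 to 738.2 on the other 4. Values without both arrays are therefore given for CIPK11, CP1 and the other calcium genes. All arrays had a median signal between 40.01 and 41.33. The labelled tissue held markers of both plant parts. RCA, Rubisco activase of green tissue, read 5174 ± 347 in the atm mutant and 4946 ± 1084 in the wild type (SD, n = 3 each). PYK10, a beta-glucosidase of roots, read 3344 ± 365 in the atm mutant and 3170 ± 186 in the wild type. EXPA7, an expansin of root hair cells, was dim, with 28.3 ± 6.12 in the atm mutant and 32.5 ± 10.6 in the wild type.

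The CIPK11 probe set was bright in the wild type and close to the array median in the atm mutant. The MAS5 signal, 1 linear intensity per probe set and array, was 51.0, 68.3 and 57.4 on atm mutant replicates 1, 2 and 3, against 522, 423.1 and 502.5 on wild type replicates 1, 2 and 3. The 2 genotypes did not overlap, the mutant being lower, and the lowest wild type value was 6.20 times the highest mutant value. The mean was 58.9 ± 8.74 in the atm mutant and 482.5 ± 52.4 in the wild type (SD, n = 3 each). The mean log2 signal differed by -3.04 (mutant minus wild type), a geometric mean 8.22-fold lower in the mutant. This is with no pseudocount. Adding the 40th percentile of each array before the logarithm gave a difference of -2.59.

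The CP1 probe set showed the same order of arrays by genotype at a higher signal in both. It read 120.4, 126.8 and 110.9 on atm mutant replicates 1, 2 and 3, against 776.8, 743.1 and 883.9 on wild type replicates 1, 2 and 3. Again no mutant array reached a wild type array, and the lowest wild type value was 5.86 times the highest mutant value. The mean was 119 ± 7.99 in the atm mutant and 801 ± 73.5 in the wild type (SD, n = 3 each), a log2 difference of -2.74 or 6.70-fold lower in the mutant. Because they are different probe sets, the higher signal of CP1 does not show a higher transcript level than that of CIPK11.

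**Figure D1:**
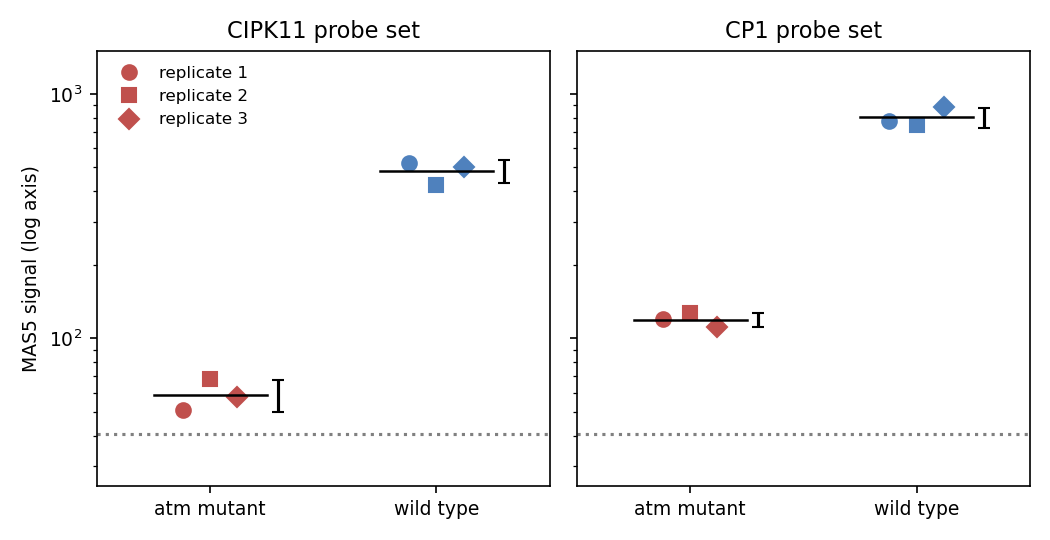
MAS5 signal (log axis) of the CIPK11 and CP1 probe sets on each array, atm mutant left and wild type right, with a symbol for each replicate number. Horizontal lines are group means, bars beside them are 1 SD (n = 3), and the dotted line is the mean of the array medians. In both panels the 3 mutant arrays lie below the 3 wild type arrays, and above the dotted line.

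Neither probe set read at the bottom of the array's range in the mutant. Whether the signal left there came from the transcript was not tested. On the atm mutant arrays CIPK11 stood at the 55.2nd, 61.6th and 58.3rd percentile of its array's probe sets, against the 94.8th, 93.3rd and 94.5th on the wild type arrays. CP1 stood at the 75.7th, 76.4th and 73.7th percentile on the mutant arrays, against the 96.8th, 96.6th and 97.2nd on the wild type arrays. Both passed the filter on dim probe sets, the 40th percentile, on all 6 arrays. In whole plants, fewer cells with the transcript and less of it in each cell cannot be told apart.

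The groups did not overlap, with the mutant lower, in 2 of the 2 members. This was so for 4.85% of the 13895 probe sets tested, the members included, and groups did not overlap in either direction in 8.66%. Since the members were chosen on this contrast, nothing is read from the comparison. By the size of the fall in mean log2 signal, 14 tested probe sets ranked ahead of CIPK11 and 16 ahead of CP1. The mutant was at least 4-fold lower in 0.194% of the probe sets tested. The median log2 difference of all tested probe sets was 0.009, so the scaling placed the genotypes at nearly the same overall level.

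**Figure D2:**
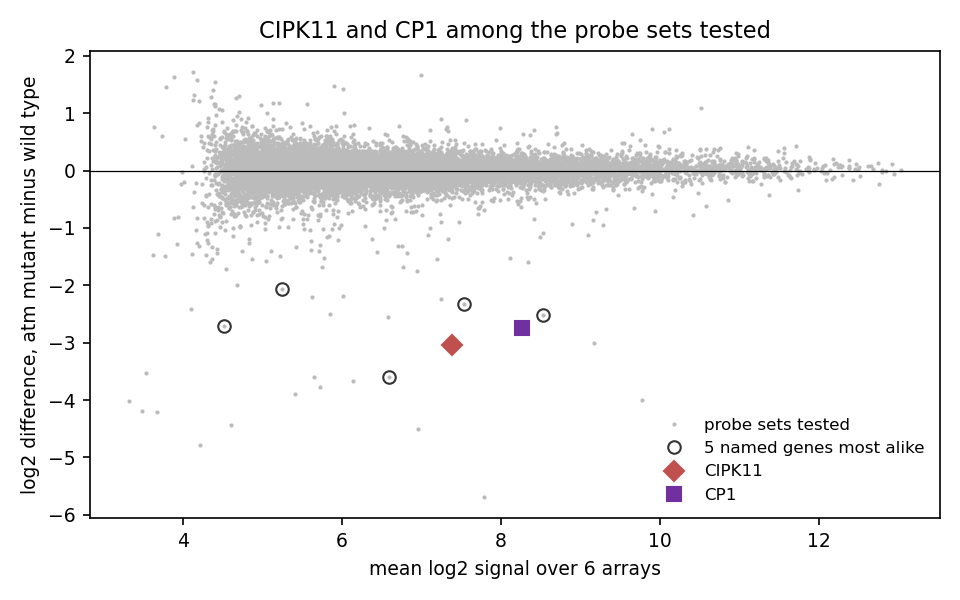
Difference in mean log2 signal, atm mutant minus wild type (vertical), against mean log2 signal over the 6 arrays (horizontal) for the 13895 probe sets tested, each a grey point. CIPK11 at -3.04 and CP1 at -2.74 lie far below the band around 0, and open circles mark the 5 named genes whose array profiles were most alike.

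Within each genotype the arrays varied little beside this difference. The pooled within-group SD of log2 signal was 0.188 for CIPK11 and 0.115 for CP1. Among probe sets within 0.5 log2 units of the same mean signal over the 6 arrays, the median SD was 0.190 around CIPK11, over 2746 probe sets, and 0.179 around CP1, over 1663. Of these, 49.1% varied less than CIPK11, and 21.3% less than CP1. That mean lay between the genotypes, whose mean log2 signals were 5.87 and 8.91 for CIPK11 and 6.9 and 9.64 for CP1 (mutant first). No array read either member within 0.5 log2 units of it, so these probe sets were not of like brightness in either genotype.

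CIPK11 had its highest value of each genotype on the array that stood apart. It was above its group mean by 0.22 log2 units on atm mutant replicate 2, its largest deviation on any array and more than its pooled SD of 0.188, and by 0.12 on wild type replicate 1. CP1 was 0.09 above its mean on that mutant array, and its deviation on that wild type array was -0.04. Without both arrays the log2 difference was -3.09 for CIPK11 and -2.81 for CP1, as large as with them.

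CIPK11 and CP1 had array profiles close to each other. Likeness was measured as the root mean square difference between 2 probe sets' log2 signals, each centred on its own mean over the 6 arrays. Between CIPK11 and CP1 it was 0.199 log2 units, and among the 13894 other tested probe sets CP1 ranked 2nd in likeness to CIPK11, and CIPK11 3rd in likeness to CP1. A profile with so large a step between genotypes can only be matched by probe sets with a like step, so these ranks mostly restate its size. The probe sets that ranked ahead were unnamed here.

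The same 5 named genes were the most alike to both members. AT5G48020 was the nearest named gene to each, at 0.351 log2 units from CIPK11 and 0.199 from CP1. It read 146.9, 157.2 and 162.9 on the atm mutant arrays, against 736.1, 982.0 and 974.0 on the wild type arrays. Its lowest wild type value was on replicate 1, the array on which CIPK11 had its highest.

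AT3G45730, at 0.391 from CIPK11 and 0.283 from CP1, read 69.8, 111.8 and 74.0 on the mutant arrays, against 391.9, 367.7 and 500.5 on the wild type arrays. Like CIPK11 it was highest among mutant arrays on replicate 2. AT5G23910 was 0.405 from CIPK11 and 0.299 from CP1, and was dim in the mutant, with 8.54, 7.84 and 10.9, against 42.9, 69.7 and 67.6 in the wild type. AT4G25580 was 0.493 from CIPK11 and 0.349 from CP1, with 17.2, 21.8 and 17.0 in the mutant, against 77.7, 74.4 and 81.3 in the wild type. Both were below the 40th percentile, 24.7 to 26.0, on every mutant array, which neither CIPK11 nor CP1 was.

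AT2G45460 was 0.352 from CIPK11 and 0.445 from CP1. It read 27.9, 26.8 and 28.5 on the mutant arrays, against 299.9, 346.4 and 369.3 on the wild type arrays. Its step was larger than that of either member, while the other 4 had smaller ones. Across the 5 genes the geometric mean was 4.20-fold to 12.2-fold lower in the mutant.

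**Figure D3:**
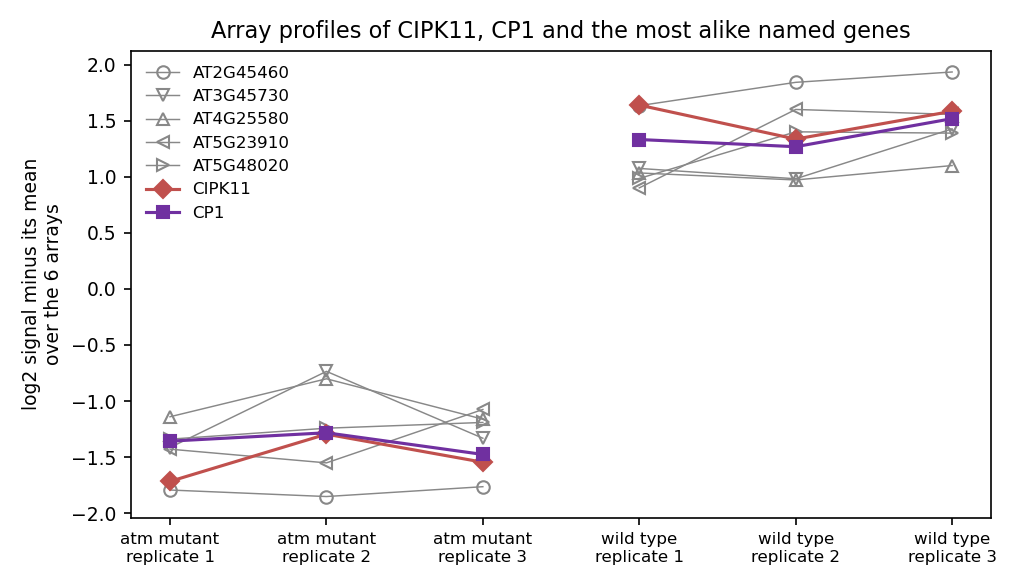
Log2 signal minus its mean over the 6 arrays (vertical) on each atm mutant array (left) and each wild type array (right), for CIPK11, CP1 and the 5 named genes most alike. Lines join arrays of a group only to guide the eye, since replicates have no order. All 7 profiles lie below 0 on every mutant array and above 0 on every wild type array.

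Among the other genes of calcium signalling, the 9 that were tested by name showed no such step. Of 190 loci in the lists, 19 had a named probe set and 9 of these passed the filter on dim probe sets. The remaining 10 were too dim to test, so whether they had a step cannot be said here. The limma test, adjusted over the whole array, called 0 of these 9 at the 0.05 threshold. At the same threshold without adjustment it was also 0, and over the 6 arrays the groups overlapped in all 9. Without both arrays that stood apart they no longer overlapped in AT2G46600, AT4G27280, CML43 and ACA.l. With 2 arrays against 2 this says little, and its share over all probe sets was not computed. Over the whole array limma called 0.223% of probe sets, all of them lower in the mutant, and 3.36% without adjustment. A count of 0 among 9 is near these shares and is no result about the list. The log2 differences of the 9 ranged from -0.62 to 0.40 with a median of -0.01, beside 0.009 for all probe sets tested.

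The kinase and sensor families closest to CIPK11 could not be read by name. None of the 26 CIPK kinase loci, 11 loci listed with the CBL sensors, 37 loci of calcium-dependent protein kinases, 8 other EF-hand or calcium-binding loci and 7 partners or substrates of CIPK11 had a probe set named here. They may be measured by unnamed probe sets, so nothing is known here of whether CIPK11 differed from its family. The named genes were 2 EF-hand proteins listed as CP1-like, 8 calmodulin-like genes and 9 genes listed as pumps and channels.

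AT2G46600 and AT4G27280, the 2 EF-hand proteins listed with CP1 from general knowledge of the family, followed the arrays that stood apart. AT2G46600 read 1334, 629.4 and 1369 on atm mutant replicates 1, 2 and 3, against 629.4, 1130 and 1203 on wild type replicates 1, 2 and 3. It was thus lowest in each genotype on the array that stood apart. Over all 6 arrays its log2 difference was 0.14 (SE 0.35, limma adjusted p = 1.00), and without both arrays 0.21 (SE 0.09, limma adjusted p = 0.311). Its sign depended on single arrays: over 18 alternatives the difference ranged from -0.15, without wild type replicate 1, to 0.51, without atm mutant replicate 2. It was also below 0 without atm mutant replicate 1 (-0.03) and without atm mutant replicate 3 (-0.05).

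AT4G27280 went the other way on these arrays. It read 121.8, 264.5 and 158.5 on the mutant arrays, against 604.3, 173.9 and 178.1 on the wild type arrays, highest in each genotype on the array that stood apart. Its log2 difference was -0.62 (SE 0.50, limma adjusted p = 1.00), and without both arrays -0.34 (SE 0.15, limma adjusted p = 0.338). Over 18 alternatives its difference ranged from -0.93 to -0.03, and the limma adjusted p from 0.157 to 1.00. The lowest came with a model term for the 2 arrays that stood apart, where the unadjusted limma p was 0.00245. The 3 arrays of a genotype spanned 1.12 log2 units in the mutant for AT4G27280, against 0.42 for CIPK11 and 0.19 for CP1.

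Among the calmodulin-like genes, small calcium sensors that resemble calmodulin, 3 of 8 passed the filter. CML42 read 126.3, 93.8 and 78.3 in the mutant, against 76.6, 120.8 and 133.3 in the wild type, a log2 difference of -0.14 (SE 0.26, limma adjusted p = 1.00). CML30 read 40.7, 57.7 and 54.5 in the mutant, against 42.6, 68.1 and 46.1 in the wild type, a difference of -0.02 (SE 0.24). The third, CML43, had a difference of -0.01 (SE 0.24). Without both arrays that stood apart the differences were -0.35 for CML42, -0.25 for CML30 and -0.25 for CML43, with limma adjusted p of 0.483 to 0.728. Over the alternatives CML42 ranged from -0.38, without wild type replicate 1, to 0.02, CML30 from -0.25 to 0.19 and CML43 from -0.27 to 0.13, so that each changed sign. Over all 6 arrays the mutant and wild type values of each were intermingled.

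Of the 9 named genes listed as pumps and channels 4 passed the filter. All but ACA.l were glutamate receptor-like genes. GLR1.4, a glutamate receptor-like channel gene, read 41.5, 42.8 and 46.9 in the mutant, against 25.1, 41.7 and 34.8 in the wild type, a log2 difference of 0.40 (SE 0.23, limma adjusted p = 1.00). It was 0.20 without wild type replicate 1 and 0.21 without both arrays that stood apart, and ranged from 0.20 to 0.56 over its alternatives. ACA.l, named in RefSeq as an autoinhibited Ca2+ ATPase, read 70.8, 91.3 and 86.3 in the mutant, against 94.8, 87.3 and 92.3 in the wild type. The difference of ACA.l was -0.15 (SE 0.15), and -0.20 without both arrays. Whether this gene encodes a calcium pump was not checked beyond its name. GLR3.3 and GLR3.6, also glutamate receptor-like, had differences of 0.06 (SE 0.40) and 0.17 (SE 0.27). GLR3.3 was highest in each genotype on the array that stood apart, with 73.9 in the mutant and 72.6 in the wild type. Without both arrays its log2 difference was 0.08 (SE 0.27, limma adjusted p = 0.943), and that of GLR3.6 was 0.37 (SE 0.30). Over their alternatives GLR3.3 ranged from -0.28 to 0.42 and GLR3.6 from -0.05 to 0.38, so both changed sign.

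**Figure D4:**
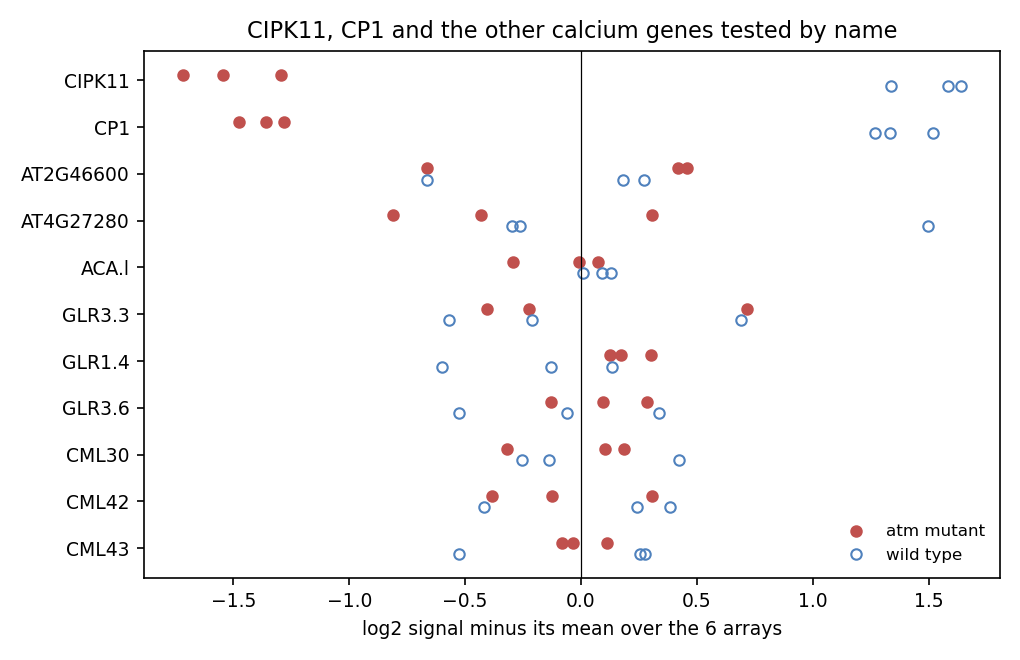
Log2 signal minus its mean over the 6 arrays (horizontal) for CIPK11, CP1 and the 9 other calcium genes tested by name, 1 gene a row, with 1 point per array, filled for the atm mutant and open for the wild type. The mutant and wild type points are apart in the top 2 rows, which were chosen for this, and overlap in the other 9.

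The few genes next to CIPK11 and CP1 on their chromosomes that were tested by name did not show the step. Of the 10 nearest protein-coding genes in RefSeq, 5 on each side, 2 were named near CIPK11 and 4 near CP1. These neighbours were picked by position after the members' values were known. AT2G30350, the gene before CIPK11, averaged 101 ± 21.5 in the atm mutant and 97.7 ± 32.5 in the wild type (SD, n = 3 each), a log2 difference of 0.09 (SE 0.29, limma adjusted p = 1.00). AT2G30320 had a difference of -0.12 (SE 0.27). AT5G49440, the only neighbour of CP1 that passed the filter, had 0.23 (SE 0.27). AT5G49470, the gene before CP1, was dim, with 16.2 ± 11.9 in the mutant and 12.4 ± 4.25 in the wild type, and was not tested. AT5G49430 and AT5G49500, also near CP1, were likewise too dim to test, with log2 differences of 0.17 and 0.85. Signals so dim cannot show whether a step was there.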

How the data were processed

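Per the sample labels, the molecule was total RNA, the label was biotin and the arrays were ATH1. The authors deposited linear MAS5 signal intensities, 1 for each probe set on each array, and the submitters' processing notes name GCOS as the software. How the arrays were scaled or filtered is not given in the sources used here. The trimmed mean of every array was about 100.0. Arrays have no read depth, and their number limits the precision.

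The log2 of the deposited intensities was used unscaled. Left out were 64 Affymetrix controls and probe sets that fewer than 3 of the 6 arrays read above their 40th percentile, so 13895 of 22746 were tested. The genotypes were compared (mutant minus wild type) by lmFit and trended eBayes of limma 3.58.1, run under R 4.3.3, with Benjamini-Hochberg adjustment over all probe sets tested and a two-sided threshold of 0.05. The script was tested on simulated data with known changes and noise drawn independently for each array. Those data lacked the deviation shared by the 2 arrays that stood apart, so the test does not cover its effect on the calls. The 2 members were among the 13895 probe sets fitted, so they enter every share over all probe sets tested. Their own p-values are not given, because they were chosen on this contrast. With 3 arrays against 3, p-values rest on the spread shared across probe sets.

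Probe set names came from the platform annotation and current symbols from RefSeq, matched on gene ID: 13513 had 1 gene (13436 matched), 503 several and 8730 none here. A gene with several probe sets was read by its brightest one on the log2 mean. The members, gene lists, tests and alternatives were chosen with earlier results of these data known. Named were the members, for each list the called genes or the 2 with the smallest p (the remaining tested genes of a list were added after their values were seen), and the 5 named genes most alike to each member. Planned comparison of CIPK11 with its closest kinases was not made. No probe, promoter or protein sequences were used here.

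The replicate numbers are shared between the genotypes. Deviations of same-numbered arrays from their group means correlated at -0.461, -0.460 and 0.379 for replicates 1, 2 and 3, so the numbers were not taken to pair the samples.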

Additional observations from a re-analysis of the deposited data

How the results depend on the processing

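In 14 alternatives the log2 difference ranged from -3.15 to -2.59 for CIPK11 and from -2.84 to -2.51 for CP1, always lower in the atm mutant. In each, 13 of 14 moved the value by less than 1 SD between replicates. The exception was the pseudocount of the 40th percentile, which gave -2.59 for CIPK11 and -2.51 for CP1, since adding a constant shrinks ratios. When single arrays were left out in turn the values were -3.15 to -2.94 for CIPK11 and -2.80 to -2.67 for CP1. With the replicate number as a block they stayed at -3.04 and -2.74, which the balanced design fixed in advance. A term for the 2 arrays that stood apart, 1 in each genotype, could not move them either. Nor could raising signals below each array's 20th percentile, since both members lay above it on every array. These alternatives count among the 13 and show nothing about stability. Limma called 31 of all probe sets, all lower in the mutant. It called 73 with array weights (68 lower and 5 higher in the mutant), 108 with a term for the 2 arrays that stood apart (92 lower, 16 higher), 233 without both of them (157 lower, 76 higher) and 11 with the replicate block, all lower. When single arrays were left out in turn the count was 13 to 36, with 13 without wild type replicate 2 and 13 without wild type replicate 3, and 1 higher call, without atm mutant replicate 2. The cause was not tested. The count of other calcium genes called was 0 in all 18 alternatives, including the replicate block, with up to 2 at an unadjusted p under 0.05, those 2 without both arrays (AT2G46600 and AT4G27280). That count covers 9 genes tested by name in most alternatives, 19 without the filter and 4 with the 60th percentile. The number of arrays and the unnamed probe sets of the CIPK and CBL families limit what can be compared.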
